A study of Homo sapiens with 6 samples.

Results

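The polycistronic cluster of miR-183, miR-96 and miR-182 encodes 3 microRNA hairpins, each of which gives a mature miRNA from its 5′ arm (5p) and another from its 3′ arm (3p). Its 6 mature miRNAs (hsa-miR-183-5p, hsa-miR-183-3p, hsa-miR-96-5p, hsa-miR-96-3p, hsa-miR-182-5p and hsa-miR-182-3p, written without the species prefix below) were taken by name from the 2588 miRNAs listed in small RNA libraries of Caco-2 cells, an established colorectal adenocarcinoma line, and 5 of the 6 had enough reads to be tested. The cells carried no further treatment or genetic change in the labels. By the study's methods, mRNA caps were removed enzymatically from total RNA, which was then heat-denatured. It was immunoprecipitated with an antibody against N7-methylguanosine (m7G-RIP, 3 libraries), and compared with non-precipitated RNA (input, 3 libraries). The labels number the libraries of each group 1 to 3 without saying whether they came from separate cultures, so the p-values measure the spread between these libraries, which may be technical. All libraries came from a single cell line, and a control immunoglobulin library was not analysed here.

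The cluster is transcribed as a common primary RNA, which DROSHA and DICER cut into hairpins and then into mature miRNAs. Its 5p miRNAs are best known from sensory epithelia of the inner ear and retina, where changes in the miR-96 seed cause hereditary hearing loss, and they are commonly raised in colorectal and other carcinomas, with FOXO transcription factors among their known targets. m7G is guanosine with a methyl group on N7 of the base, best known from the cap of mRNA and also made inside tRNA and rRNA by dedicated methyltransferases. The study asked which miRNAs carry it internally, so the comparison here is the abundance of each cluster miRNA in m7G-RIP against its input.

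In GRCh38 the hairpins lie on the minus strand of chromosome 7, with MIR183 (ENSG00000207691.1) from 129774905 to 129775014, MIR96 (ENSG00000199158.1) from 129774692 to 129774769 and MIR182 (ENSG00000207990.3) from 129770383 to 129770492. MIR183 and MIR96 are 135 bases apart, while 4199 bases separate MIR96 from MIR182. All 3 lie within the long noncoding RNA gene ENSG00000286380.3 (129763060 to 129780220, same strand), in an intron, with 0 exons of other genes overlapping them in GENCODE release 44.

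The 6 mature sequences from RefSeq (GRCh38.p14) are shown because the results below separate miRNAs whose seeds are close to each other. Capitals mark the seed, bases 2 to 8, which pairs with target mRNAs.
miR-183-5p: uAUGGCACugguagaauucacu
miR-96-5p: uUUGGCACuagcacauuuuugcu
miR-182-5p: uUUGGCAAugguagaacucacacu
miR-183-3p: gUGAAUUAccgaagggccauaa
miR-96-3p: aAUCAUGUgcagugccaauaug
miR-182-3p: uGGUUCUAgacuugccaacua
The seeds of miR-96-5p and miR-183-5p match at 6 of 7 positions, those of miR-96-5p and miR-182-5p also at 6, and those of miR-183-5p and miR-182-5p at 5. Beyond the seed, the relation is different. miR-183-5p and miR-182-5p share the 8 bases UGGUAGAA and are 5 single-base edits apart, whereas miR-96-5p is 8 edits from miR-183-5p and 10 from miR-182-5p. Each of the 6 sequences has a single locus in RefSeq.

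The hairpins of MIR96 and MIR182 are given with both mature arms in capitals, to show which stretch of each precursor was counted.
MIR96: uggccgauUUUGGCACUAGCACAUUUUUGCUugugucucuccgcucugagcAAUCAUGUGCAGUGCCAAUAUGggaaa
MIR182: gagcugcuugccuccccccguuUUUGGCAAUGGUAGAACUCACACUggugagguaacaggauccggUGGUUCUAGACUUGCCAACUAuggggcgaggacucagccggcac

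The miRNA reads of an input library totalled 16466178 to 19628046, those of an m7G-RIP library 1654102 to 3105129. Values below are CPM, counts per 1000000 of the library size scaled by edgeR's TMM factors, on which 3 counts correspond to 0.235 to 0.262 CPM in the input and 0.676 to 1.11 CPM in m7G-RIP. Such limits cover counting error only. By the quasi-likelihood test in edgeR, with Benjamini-Hochberg adjustment and a threshold of 0.05, 321 of the 800 tested miRNAs (40.1%) were called enriched in m7G-RIP and 305 (38.1%) depleted, 78.2% in either direction. With libraries scaled by total counts alone 442 were enriched and 198 depleted, and the median tested miRNA stood 1.09 higher in log2 enrichment, so where 0 lies depends on the normalisation. The 7 intestinal and epithelial miRNAs chosen as markers had input levels of 260 to 54882 CPM and summed to 112703 to 120232 CPM per input library and 37891 to 47112 CPM per m7G-RIP library, where 6 of them were depleted and 1 enriched. The 10 markers of blood, muscle, endothelium, neurons and liver summed to 1465 to 1520 CPM in the input and 970 to 1347 CPM in m7G-RIP, mostly from miR-126-3p and miR-1-3p, and liver miR-122-5p had 0 counts in every library.

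The 5p miRNAs of miR-183 and miR-182 rose in m7G-RIP, 4.09-fold and 3.02-fold, while miR-96-5p from the same cluster fell to a level 3.19-fold lower than in the input. miR-183-3p was slightly depleted, and miR-182-3p did not pass the test. Hence 2 of the 5 tested members were enriched and 2 depleted, beside background shares of 40.1% and 38.1% (78.2% in either direction). Scaled by total counts, miR-183-5p, miR-182-5p and miR-96-5p kept these calls with log2 enrichments of 3.13, 2.69 and -0.58. In both groups the members had the same order of abundance, miR-182-5p, miR-183-5p, miR-96-5p, miR-183-3p, miR-182-3p and miR-96-3p, and neighbours in this order did not overlap between libraries of a group.

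miR-183-5p, the main product of its hairpin, measured 5017, 5316 and 5259 CPM in input replicates 1, 2 and 3, and 20554, 24774 and 18438 CPM in m7G-RIP replicates 1, 2 and 3. Every m7G-RIP library was above every input library, and its rank by mean CPM among all listed miRNAs went from 27 (input) to 10 (m7G-RIP). The log2 enrichment was 2.03 ± 0.15 (SE; quasi-likelihood test in edgeR, adjusted p = 4.26e-08), higher than that of 74.9% of the miRNAs tested.

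miR-182-5p was the most abundant member, with 10610, 10597 and 11021 CPM in the input and 30951, 37144 and 29263 CPM in m7G-RIP. The groups did not overlap, and the rank by mean CPM went from 18 to 6. Its log2 enrichment was 1.60 ± 0.14 (SE; quasi-likelihood test in edgeR, adjusted p = 3.14e-07), above 69.5% of the tested miRNAs.

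miR-96-5p, whose seed is the one altered in hereditary hearing loss, measured 962, 1029 and 942 CPM in the input and 379, 261 and 279 CPM in m7G-RIP. Here all m7G-RIP libraries were below all input libraries. The log2 enrichment was -1.67 ± 0.17 (SE; quasi-likelihood test in edgeR, adjusted p = 8.56e-07), and the rank by mean CPM went from 62 to 100. Its read counts (input 10792 to 13129, m7G-RIP 756 to 1562) were far above the limit set by 3 counts.

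**Figure D1:**
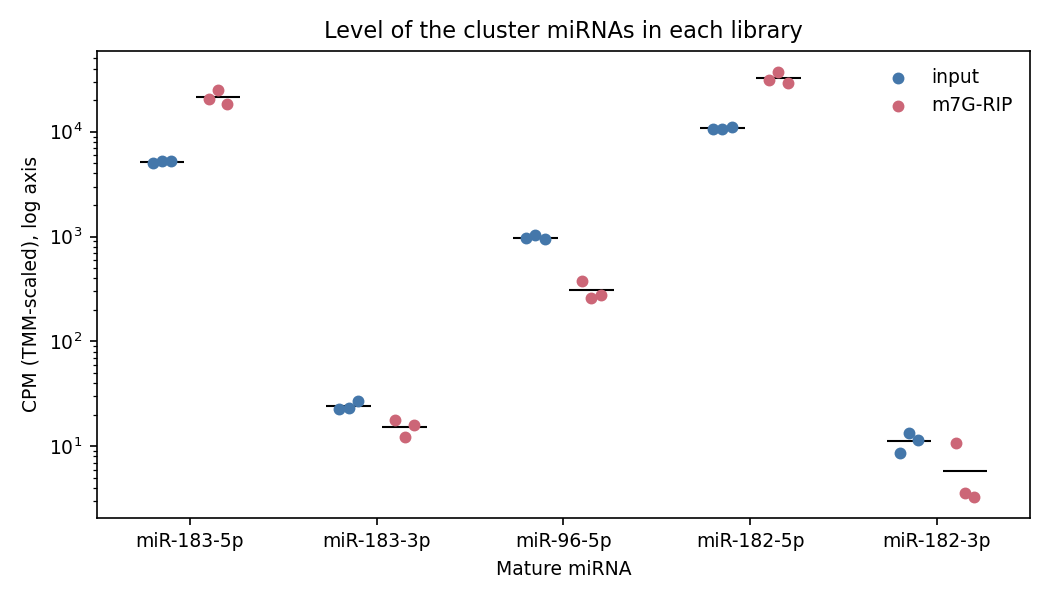
Level of the 5 tested cluster miRNAs in each library, in CPM scaled by TMM factors on a log axis; points are libraries (3 input, 3 m7G-RIP) and bars their means. miR-183-5p and miR-182-5p are higher in every m7G-RIP library, miR-96-5p is lower in every one, and the groups overlap for miR-182-3p (miR-96-3p, with 0 counts in m7G-RIP, is left out).

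The 3p miRNAs, the minor products of the hairpins, were rare. miR-183-3p measured 22.8, 23.0 and 27.0 CPM in the input and 18.0, 12.2 and 15.8 CPM in m7G-RIP, on 267 to 309 and 43 to 74 reads. The groups did not overlap, but they lay close together, and the log2 enrichment of -0.67 ± 0.25 (SE; quasi-likelihood test in edgeR, adjusted p = 0.0272) was not stable. With the replicate number as a block it was -0.67 with an adjusted p of 0.0784 (edgeR), it lost significance when input replicate 1, 2 or 3 was left out (adjusted p = 0.072, 0.0765 and 0.179, edgeR), and under total counts and upper-quartile factors it turned to 0.43 and 0.16.

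miR-182-3p measured 8.70, 13.5 and 11.6 CPM in the input and 10.7, 3.60 and 3.32 CPM in m7G-RIP. m7G-RIP replicate 1, with 44 reads, lay within the input range, while replicates 2 and 3, with 16 and 9 reads, lay below it. The log2 enrichment was -0.91 ± 0.43 (SE; quasi-likelihood test in edgeR, adjusted p = 0.0653), and -1.72 without m7G-RIP replicate 1 (adjusted p = 0.000567, edgeR). It was 0.15 under total counts (adjusted p = 0.761, edgeR).

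miR-96-3p had 20, 13 and 23 reads in the input and 0 reads in every m7G-RIP library, and was too rare to be tested. Over the group, 56 input reads correspond to 1.56 CPM, while 0 reads in m7G-RIP allow up to 0.266 CPM (3 counts over the 3 libraries). Against the input value as measured, miR-96-3p was thus at least 5.85-fold lower. This bound covers the counting error of the m7G-RIP reads only, not that of the 56 input reads. Scaled by total counts the bound was 2.78-fold. Without a filter on low counts, where 1744 miRNAs were tested, its adjusted p was 9.08e-05 (edgeR).

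**Figure D2:**
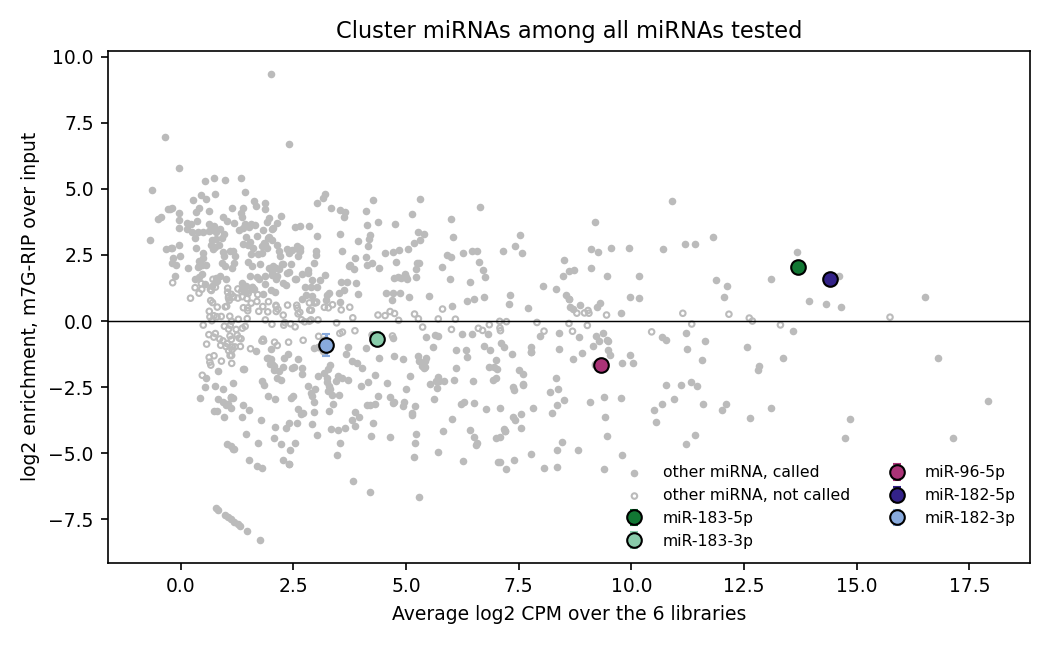
Log2 enrichment of m7G-RIP over input against average log2 CPM for the 800 tested miRNAs; coloured points are cluster miRNAs with the standard error as bars, and grey points other miRNAs, filled where the adjusted p-value was under 0.05. miR-183-5p (2.03) and miR-182-5p (1.60) sit among the most abundant miRNAs above 0, and miR-96-5p (-1.67) below it.

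To be free of the normalisation, the members were also set against each other. The ratio of 2 miRNAs within a library does not depend on library size, and edgeR's test for differential use of features in a unit was applied to the same fit, with p-values adjusted over 197 differences (194 hairpins with both arms tested and 3 pairs of cluster 5p miRNAs). With 3 libraries in each group an exact permutation test cannot go below 0.1.

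Between miR-183-5p and miR-96-5p the ratio of reads was 5.22, 5.17 and 5.58 in the input and 54.2, 94.8 and 66.2 in m7G-RIP. Thus the ratio of these neighbours, cut from hairpins 135 bases apart, was 13.1-fold higher after immunoprecipitation, with no overlap between the groups. The difference in log2 enrichment was 3.70 (adjusted p = 2.33e-11, edgeR), and it was between 3.47 and 3.91 under all 13 other settings tried.

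The ratio of miR-182-5p to miR-96-5p was 11.0, 10.3 and 11.7 in the input and 81.6, 142 and 105 in m7G-RIP. This pair has seeds that differ in a single base, and the groups again did not overlap. Its difference was 3.27 on the log2 scale (adjusted p = 5.74e-11, edgeR).

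For miR-183-5p and miR-182-5p the ratio was 0.473, 0.502 and 0.477 in the input and 0.664, 0.667 and 0.630 in m7G-RIP. It was higher in all 3 m7G-RIP libraries, by 0.43 on the log2 scale with SDs of 0.046 in both groups (exact permutation test, two-sided, p = 0.1, the smallest possible). In the fit the difference was 0.44 and did not pass the threshold (adjusted p = 0.0706, edgeR), with adjusted p-values between 0.0188 and 0.231 under the other settings. The size of this difference was thus steady between libraries, 1.35-fold, whereas its call was not.

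**Figure D3:**
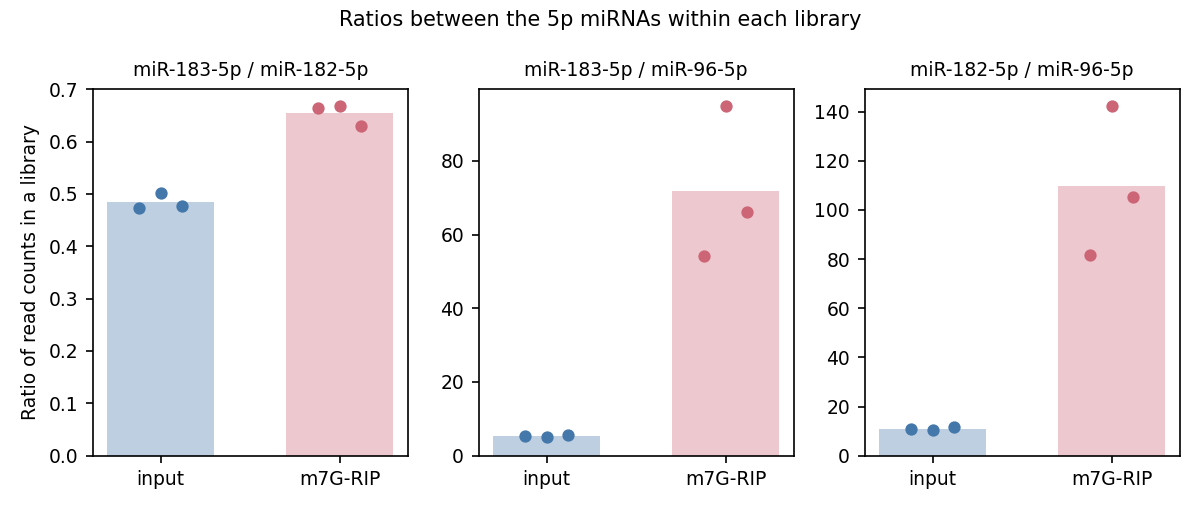
Ratio of read counts between the 5p miRNAs within each library; points are libraries, bars group means, and each panel has its own axis from 0. The ratios to miR-96-5p are 13.1-fold and 9.71-fold higher in m7G-RIP (geometric means), and that of miR-183-5p to miR-182-5p 1.35-fold.

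The composition of the cluster changed accordingly. All members together took 1.17%, 1.10% and 1.20% of the miRNA reads in the input and 6.93%, 8.90% and 7.88% in m7G-RIP. This share was 1.16% ± 0.0497 (SD, n = 3) and 7.90% ± 0.985 (SD, n = 3; exact permutation test, two-sided, p = 0.1); it is a share of total counts, on which the tested miRNAs stood higher by a median of 1.09 (log2). Within the cluster, miR-96-5p fell from 5.77% ± 0.302 (SD, n = 3) of the reads to 0.577% ± 0.155 (SD, n = 3; exact permutation test, two-sided, p = 0.1). miR-183-5p went from 30.7% ± 0.586 to 39.3% ± 0.760 (SD, n = 3), and miR-182-5p from 63.4% ± 0.824 to 60.1% ± 0.749 (SD, n = 3), none of them with overlapping groups. Accordingly, miR-182-5p took a smaller share of the cluster in m7G-RIP although its own level was higher there.

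The arms of a hairpin come from a single precursor molecule, and here they separated. The 3p arm of miR-183 made up 0.452%, 0.431% and 0.510% of the reads of both arms in the input and 0.0873%, 0.0491% and 0.0859% in m7G-RIP. For miR-182 the 3p share was 0.0819%, 0.127% and 0.105% in the input and 0.0345%, 0.0097% and 0.0113% in m7G-RIP. In both hairpins every m7G-RIP library had the smaller 3p share, and the 5p arm was the more enriched one. The difference between the arms, 5p minus 3p, was 2.70 for miR-183 (adjusted p = 3.8e-08, edgeR) and 2.50 for miR-182 (adjusted p = 1.8e-05, edgeR), and it passed the threshold under all other settings in which both arms were tested. For miR-96 the difference could not be tested, since its 3p arm had too few reads.

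Among all 194 hairpins with both arms tested, the arms differed in 71.1%, and in 48.5% they differed with the 5p arm the more enriched. Whatever the test found, 5p was higher in 125 of the 194. The median of 5p minus 3p over these hairpins was 0.91, with quartiles of -0.79 and 2.84. miR-183 ranked 52 and miR-182 ranked 56 from the top, just below the upper quartile.

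**Figure D4:**
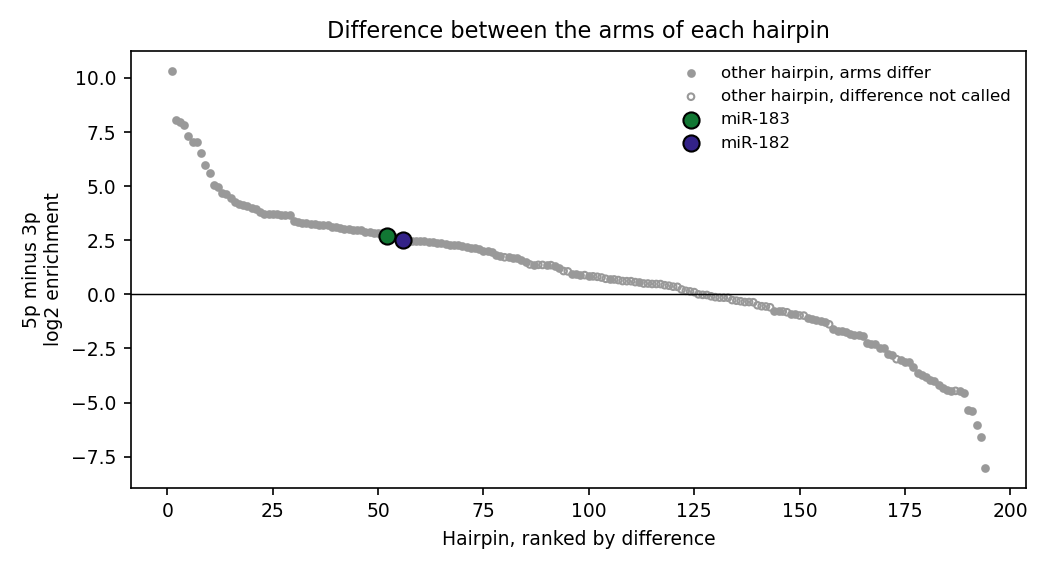
Difference in log2 enrichment between the 5p and 3p arm of the 194 hairpins with both arms tested, ranked from the highest; filled points passed an adjusted p-value under 0.05. miR-183 (2.70) and miR-182 (2.50) rank 52 and 56, just below the upper quartile of 2.84.

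With regard to sequence, the seeds of the 3 tested 5p members all differ. Outside the cluster, the single tested miRNA with the seed of a 5p member was miR-1271-5p, which shares UUGGCAC with miR-96-5p and comes from chromosome 5 (176367960 to 176367981, plus strand).
miR-1271-5p: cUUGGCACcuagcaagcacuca
It measured 15.5, 16.7 and 14.0 CPM in the input and 1.21, 0.901 and 2.58 CPM in m7G-RIP, on 4 to 7 reads. Like miR-96-5p it was lower in every m7G-RIP library, with a log2 enrichment of -3.39 ± 0.41 (SE; quasi-likelihood test in edgeR, adjusted p = 6.86e-06).

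The stretch UGGUAGAA, shared by miR-183-5p and miR-182-5p and lacking in miR-96-5p, was found in no further tested miRNA, 2 of 714 with a RefSeq sequence (searched on the RNA strand, after the values were seen). Its core GGUAG, which these 8 bases contain, was found in 31 of the 714 (4.34%), of which 19 were enriched and 8 depleted, beside 290 enriched and 268 depleted among all 714. The 19 include miR-183-5p and miR-182-5p, from which the stretch was taken, so these counts are not a test of it. The log2 enrichment of the 31 ranged from -3.86 to 4.67. Among them were let-7e-5p with 3.16 and miR-17-5p with -3.13, and the 714 as a whole ranged from -8.27 to 9.34.

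Runs of at least 2 G in the mature sequences were also counted, since the study related m7G to G-rich structures. The study assessed these in primary hairpins, so the counts here are of a different and shorter sequence. miR-183-5p and miR-182-5p have 2 such runs, miR-96-5p, miR-183-3p and miR-182-3p have 1, and miR-96-3p has 0. The 185 tested miRNAs with 0 runs had a median log2 enrichment of -0.65 (25.9% enriched). This was above that of the class with 1 run (19.0% enriched), so these 2 classes did not follow the number of runs. The 99, 46 and 8 miRNAs with 3, 4 and 5 runs had medians of 2.43, 3.20 and 2.68 (75.8%, 95.7% and 87.5% enriched). The 139 with 2 runs had a median log2 enrichment of 0.78 (quartiles -1.16 and 2.48) and the 237 with 1 run a median of -1.23 (quartiles -3.07 and 0.33), and each tested member fell between the quartiles of its class. By total G content the members were not set apart in the same way. miR-183-3p had the highest share of G, 27.3%, against 22.7% in miR-183-5p, 20.8% in miR-182-5p, 19.0% in miR-182-3p and 17.4% in miR-96-5p, and the median of the tested miRNAs was 27.3%. Across the 714 miRNAs, which share libraries and are not independent, the share of G and the log2 enrichment had a Spearman's rho of 0.497.

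**Figure D5:**
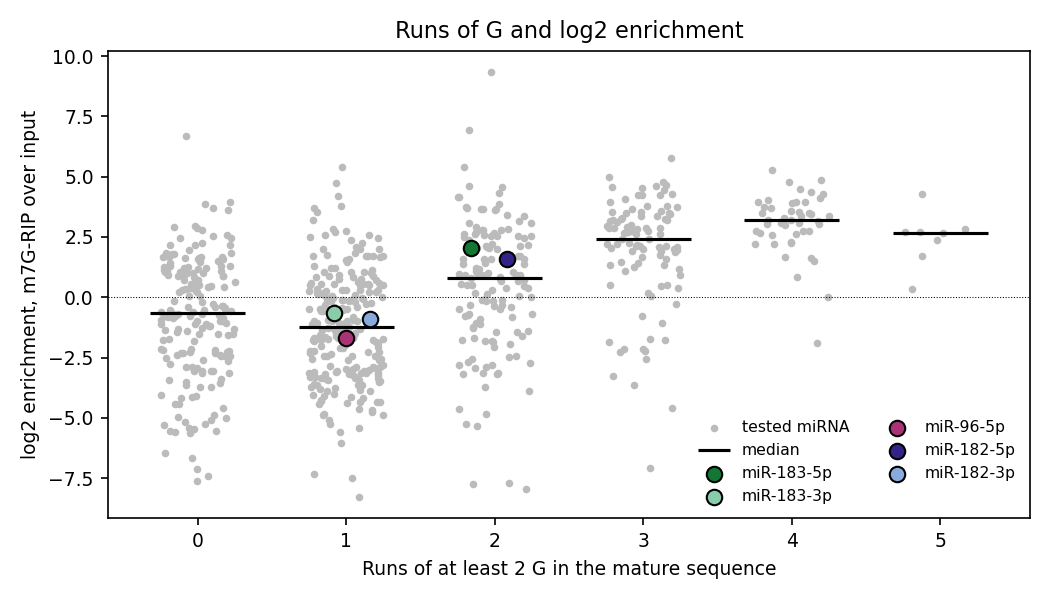
Log2 enrichment of tested miRNAs by the number of runs of at least 2 G in the mature sequence, with some sideways scatter for legibility; black bars are medians and coloured points cluster miRNAs. miR-183-5p and miR-182-5p are in the class with 2 runs (median 0.78) and the other 3 tested members in the class with 1 run (median -1.23).

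Of the precursors, MIR182 and MIR96 were searched and MIR183 was not. A motif of 4 runs of at least 2 G separated by 1 to 7 bases was found in the MIR182 hairpin and not in that of MIR96, searched on the RNA strand. It spans bases 47 to 66 of MIR182, ggugagguaacaggauccgg, which is the whole stretch between the 5p and the 3p arm. The motif was present in 456 of 1560 RefSeq hairpins (29.2%). The bases of this first match are in neither mature miRNA, so the reads counted here do not contain them. However, miR-182-3p starts directly after them and has a run of 2 G in its seed. Runs that begin later in this stretch therefore also meet the motif, with the last run inside miR-182-3p.

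Over the 6 libraries, the profiles of miR-183-5p and miR-182-5p were close to each other (Euclidean distance of centred log2 CPM, 0.539) and far from that of miR-96-5p (4.58 and 4.06). Among 264 other miRNAs of moderate to high abundance (log2 CPM averaging 5 or more), those nearest to miR-183-5p were miR-196a-5p (distance 0.390), miR-1304-5p (0.399) and miR-25-5p (0.450). The nearest to miR-182-5p were miR-191-5p (0.178), miR-92b-3p (0.276) and miR-155-5p (0.284). miR-96-5p was nearest to miR-143-3p (0.134), miR-7706 (0.290) and miR-23b-3p (0.368). With 6 libraries in 2 groups, this distance mostly reflects the size of the enrichment.

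Other miRNAs commonly raised in colorectal tumours were set beside the cluster as a list of 9. Of these 8 were tested, 1 was enriched and 7 were depleted, beside background shares of 40.1% and 38.1%, with a median log2 enrichment of -3.10 against 0.16 over all 800 tested miRNAs. The enriched one was miR-92a-3p, from the miR-17/92 cluster, with 0.90 ± 0.14 (SE), while miR-21-5p, a widely overexpressed oncogenic miRNA, had -4.43 ± 0.18 (SE). miR-183-5p and miR-182-5p were thus above all tested members of this list, and miR-96-5p, at -1.67, lay within its range of -4.43 to 0.90. miR-203a-3p had 0 reads in every library.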

How the data were processed

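The deposited table holds raw counts of reads for each mature miRNA and library, not normalised. The authors trimmed adaptors with Trimmomatic, mapped to GRCh38 with STAR in the study's methods (Bowtie2 in the submitters' processing notes), and counted with featureCounts on miRBase 22. How multi-mapping reads were counted is not given in the sources used here.

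Counts were filtered with filterByExpr (minimum count 10, minimum total 15), scaled by TMM and tested with edgeR 4.0.16 (R 4.3.3) by the quasi-likelihood test, m7G-RIP against input, with Benjamini-Hochberg adjustment over all 800 tested miRNAs and a threshold of 0.05. The standard error is the absolute log2 enrichment divided by the square root of F. Differences between arms or members were tested with diffSpliceDGE on the same fit. The steps were tested on simulated counts, in which p-values of the difference test ran somewhat small, so values near the threshold should be read with care. Libraries of a group differed by more than sampling noise (chi-square of 17.5 to 105 per degree of freedom), so none was a copy.

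Named miRNAs were the 6 members, tested miRNAs sharing a 5p member's seed, the 3 nearest profiles per 5p member, and a colorectal list; others were named after their values were seen. Members and lists were chosen with earlier results of these data known. Sequences came from RefSeq (714 of the 800 matched), coordinates from RefSeq and GENCODE release 44, both GRCh38, as used by the authors. The alternatives were other scalings and filters, DESeq2 1.42.0, the replicate block, each library left out and a threshold of 0.01. Python 3.11.15 with pandas 2.3.3 and matplotlib 3.10.9 was used for sequences and plots. No molecular identifiers were counted. Limits from 3 counts cover counting error only, whereas standard errors and SDs include the spread between libraries.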

Additional observations from a re-analysis of the deposited data

How the results depend on the processing

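miR-183-5p, miR-182-5p and miR-96-5p kept their direction and their call under all 14 other settings, with log2 enrichments of 1.69 to 3.13, 1.25 to 2.69 and -2.02 to -0.58, and so did the arm differences and both differences to miR-96-5p wherever they were tested. Of 129 values for members and differences, 114 kept direction and side of the threshold.

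Under total counts, miR-183-3p was 0.43 and miR-182-3p 0.15, the difference of miR-183-5p and miR-182-5p passed at 0.44, and 24.8% of the tested miRNAs (198) were depleted. With upper-quartile factors miR-183-3p was 0.16. miR-182-3p passed with DESeq2's size factors (-1.27), without a filter (-1.22), where 18.3% of 1744 miRNAs were enriched and 24.3% depleted, and in DESeq2's Wald test (-1.29). A minimum of 10 counts in each library left 426 miRNAs with 357 calls, against 626 calls among 800. An average log2 CPM of at least 5 left 267 with 236 calls. Under these filters the difference of miR-183-5p and miR-182-5p passed, at 0.44 and 0.43. With each library left out, miR-183-3p was -0.84 to -0.51, miR-182-3p -1.72 to -0.75, and the difference of miR-183-5p and miR-182-5p 0.42 to 0.46, passing without m7G-RIP replicate 3 (0.46). The cause of these changes was not tested. miR-182-3p had too few reads to be tested in 2 settings, and miR-183-3p in 1.

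Deviations from the group means in libraries of the same number had correlations of -0.014, -0.028 and 0.060. Values near 0 cannot tell whether same-numbered libraries came from the same RNA, since noise between libraries could hide a shared origin. With the replicate block 296 miRNAs were enriched and 295 depleted, and miR-183-3p, at -0.67, was the member whose call was lost. The values of miR-183-3p and miR-182-3p rest on 9 to 74 m7G-RIP reads, which limits their precision.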
